A study of Mus musculus with 21 samples.

Results

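The genes described here make prostaglandins and leukotrienes, or receive them: the phospholipase gene Pla2g4a, the cyclooxygenase genes Ptgs1 and Ptgs2, the terminal synthase genes Ptges and Tbxas1, the receptor gene Ptger4, and the leukotriene genes Alox5, Alox5ap, Lta4h and Ltc4s. They were found in the authors' raw gene table by Ensembl ID with the version removed, and all 10 of 10 were present among the 23250 genes in the table. All 10 passed the filter on low counts that left 13468 genes for testing. The cells were macrophages grown for 7 days from mouse bone marrow, on a C57BL/6J background, in medium holding 2.5% supernatant of cells that secrete GM-CSF, a growth factor for marrow precursors. Per the series' design text, the macrophages lacked the mannose receptor, the product of Mrc1, and received FcMR, which joins the extracellular region of that receptor to the Fc region of human IgG1. The 7 groups were untreated cells at 0 h, cells given FcMR for 4, 12 or 24 h, and cells given an isotype control protein for 4, 12 or 24 h, with 3 libraries each and 21 in all. The design text gives the receptor deficiency for the treated macrophages, and no sample label states a genotype. No group was left without added protein for 4, 12 or 24 h, so in a comparison with untreated cells the time in culture and the added protein cannot be told apart. No label says that the 3 libraries of a group came from separate mice or cultures, so the p-values measure the spread between these libraries, which may be technical.

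Eicosanoids are lipid signals cut from membrane arachidonate. Cytosolic phospholipase A2 releases arachidonate, the cyclooxygenases turn it into prostaglandin H2, and terminal synthases make prostaglandin E2, thromboxane A2 or other prostanoids from that intermediate. In the other branch, 5-lipoxygenase and its membrane partner FLAP make leukotriene A4, which is turned into leukotriene B4, a neutrophil attractant, or into the cysteinyl leukotrienes. Macrophages are a known source of both kinds of lipid, and the inducible cyclooxygenase Ptgs2 is a textbook gene of inflammatory activation.

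Library totals ranged from 5532225 to 66729533 counts, and 3 counts corresponded to 0.045 to 0.542 CPM, counts scaled to a fixed library total. Levels below are CPM after TMM scaling, a correction for library composition, and differences are log2 fold changes with their standard error (SE). A gene was called at an edgeR adjusted p under 0.05, with the Benjamini-Hochberg adjustment over all genes tested. Markers of macrophages and other myeloid cells summed to 21538 to 36646 CPM per library, with Lyz2 alone at 16643 CPM or more. Of the 9 in that list, 8 were tested. Against isotype, Csf1r was called lower with FcMR at 4 h, Itgam lower and Adgre1 higher at 12 h, and Itgam, Itgax and Lyz2 lower and Adgre1 higher at 24 h. Mrc1 was at 0 to 0.589 CPM in every library. Dendritic cell markers summed to 452 to 569.8 CPM with FcMR and 295 to 434 CPM with isotype at 4 h, to 594 to 756 and 539.9 to 614 CPM at 12 h, and to 701 to 755 and 410.3 to 474 CPM at 24 h. Of these 5, Ccr7 was called higher at 4 and 24 h, Zbtb46 higher at 12 and 24 h, and Flt3 lower at 12 h. Ccr7 made up most of each sum, at 639 to 702 CPM with FcMR and 369 to 429 CPM with isotype at 24 h. Xcr1 and Cd209a overlapped between the arms at each time. Stromal markers summed to 4.66 to 7.03 and 2.73 to 4.51 CPM at 4 h, 9.61 to 16.3 and 2.13 to 2.95 CPM at 12 h, and 4.45 to 7.8 and 0.901 to 1.08 CPM at 24 h, with Pdgfrb called higher at each time. Pdgfrb made up most of each FcMR sum, at 7.93 to 14.5 CPM at 12 h and 3.67 to 6.58 CPM at 24 h. The other stromal markers did not rise: Col1a1 and Pdgfra overlapped between the arms at each time, and Col1a2 was at 0.287 CPM or less. The part of these cells in the results below was not tested. Markers of B cells summed to at most 5.98 CPM and of T cells to at most 1.98 CPM. The representation of GC-rich genes differed among libraries of the same group, most at 4 h with isotype, where the tilt (deviation in log2 level of GC-rich minus GC-poor genes) was −0.854, −1.624 and 0.654. By the running numbers that open the sample titles, isotype 4 h replicate 3 and FcMR 12 h replicate 1 are swapped in position, and their tilts were 0.654 and −0.750. The other 12 h libraries had tilts of 0.600 to 0.844 and the other 4 h libraries −1.624 to −0.190. In tilt, each swapped library was thus with the time of its position and not of its label. Tilt also differed between 4 and 12 h, so comparisons between these times carry that difference. The cause was not tested. Ptges, at 23.1 and 143 CPM in the swapped libraries, and Alox5, at 21 and 4.55 CPM, sat with their labelled groups. Without both libraries, each call of a member against the isotype control at 4 and 12 h stood, and Tbxas1 was called at 4 h as well (see its values).

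Against the isotype control, the genes of inducible prostaglandin E2 synthesis were higher with FcMR, and those of thromboxane and early leukotriene synthesis were lower. Ptgs2 and Ptges rose at all 3 times, Ptgs1 fell at all 3 times, and Tbxas1, Alox5 and Alox5ap fell at 12 and 24 h. At 4 h, 4 of 10 members were called where 17.7% of all genes tested were, 2 higher (8.62% of genes) and 2 lower (9.13%). That split of all genes was 1161 higher and 1229 lower with TMM, 1412 and 839 with RLE size factors, and 1315 and 666 by limma on the normalized table. At 12 h, 8 of 10 were called against 16.1% of genes, 3 higher (8.61%) and 5 lower (7.49%). At 24 h, 6 of 10 were called against 20.9% of genes, 2 higher (11.4%) and 4 lower (9.44%). The 10 genes were chosen with earlier results of these data known, so such counts, here and below, do not test for an excess. The median log2 fold change of the 10 members was 0.04, −0.42 and −0.08 at 4, 12 and 24 h, beside −0.07, −0.02 and 0.01 over all genes, since members moved in both directions. The FcMR and isotype libraries did not overlap for 5, 8 and 8 of the 10 members, where this held for 29.7%, 35.4% and 34.4% of genes. These are bulk samples, in which fewer cells of a type and less RNA per cell cannot be told apart.

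**Figure D1:**
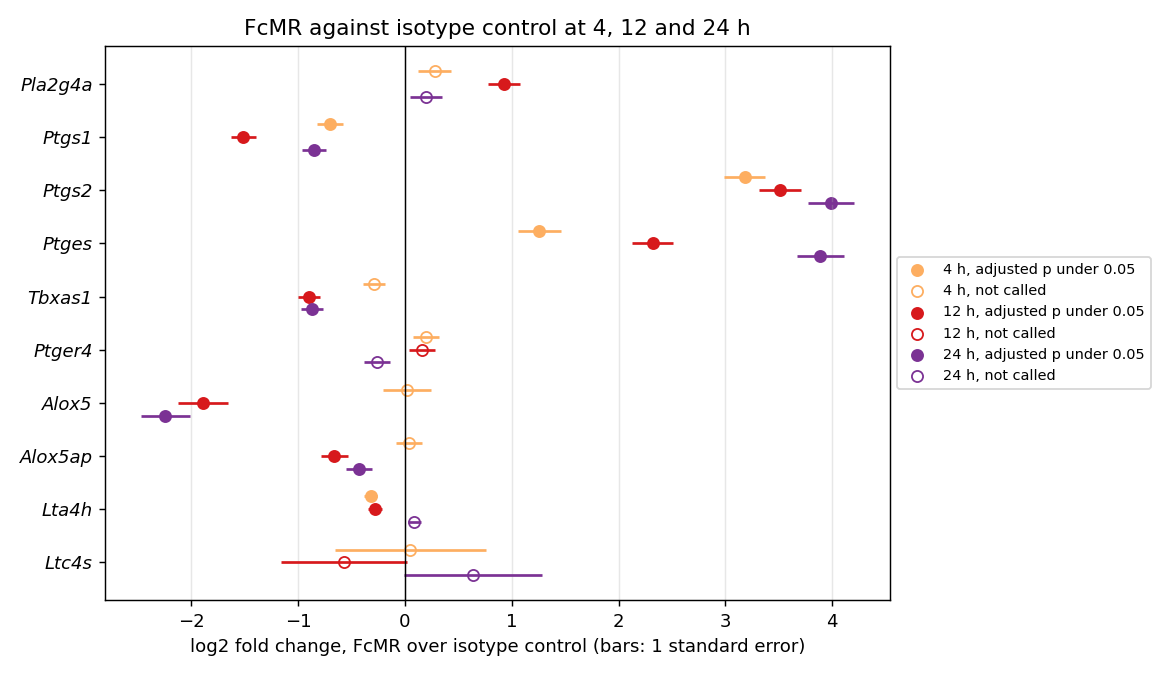
Log2 fold change of each of the 10 genes with FcMR over isotype control (horizontal axis) at 4, 12 and 24 h, with bars of 1 standard error; filled points were called by edgeR at an adjusted p under 0.05. Ptgs2 lies between 3.18 and 3.99 at all times, Ptges moves from 1.26 to 3.89, and Alox5 moves from 0.02 to −2.24.

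Pla2g4a (ENSMUSG00000056220.14, GRCm38 chromosome 1, 149829618 to 149961290, minus strand) encodes cytosolic phospholipase A2, which frees arachidonate for both branches. Untreated libraries held 12, 11.9 and 8.83 CPM. At 12 h the isotype libraries held 34.4, 36.7 and 41.1 CPM and the FcMR libraries 76.3, 71.2 and 66.7 CPM, so the groups were well apart. The difference at 12 h was 0.93 (SE 0.148, edgeR adjusted p 0.000201). At 4 h the isotype libraries held 33.7, 35.2 and 25.3 CPM and the FcMR libraries 38, 38.1 and 38 CPM. The groups did not overlap, yet the difference of 0.28 (SE 0.152) was not called (edgeR adjusted p 0.23). With a correction for GC content the same difference was 0.39 and was called (adjusted p 0.00656). At 24 h the isotype libraries held 57.7, 56 and 57.8 CPM and FcMR replicates 1 to 3 held 58.3, 82.8 and 55.2 CPM, which overlapped. There the difference was 0.20 (SE 0.147, edgeR adjusted p 0.4).

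Ptgs2 (ENSMUSG00000032487.8, GRCm38 chromosome 1, 150100031 to 150108227, plus strand) encodes the inducible cyclooxygenase, COX-2, and Ptgs1 (ENSMUSG00000047250.13, chromosome 2, 36230426 to 36252272, plus strand) its constitutive relative, COX-1. Both carry out the same step, and they moved in opposite directions with FcMR at each time. To set these diverging paralogs side by side, the 250 bases before each annotated start are shown, from RefSeq sequence on GRCm38, 5′ to 3′ along the gene's strand. The first is chr1:150099781-150100030, plus strand, and the second chr2:36230176-36230425, plus strand. Capitals mark letter matches named in the next paragraph.
Ptgs2: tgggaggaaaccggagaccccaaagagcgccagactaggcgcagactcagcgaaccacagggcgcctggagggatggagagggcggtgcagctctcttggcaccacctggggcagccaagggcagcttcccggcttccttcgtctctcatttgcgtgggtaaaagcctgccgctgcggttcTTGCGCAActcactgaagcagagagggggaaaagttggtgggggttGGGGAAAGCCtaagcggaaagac
Ptgs1: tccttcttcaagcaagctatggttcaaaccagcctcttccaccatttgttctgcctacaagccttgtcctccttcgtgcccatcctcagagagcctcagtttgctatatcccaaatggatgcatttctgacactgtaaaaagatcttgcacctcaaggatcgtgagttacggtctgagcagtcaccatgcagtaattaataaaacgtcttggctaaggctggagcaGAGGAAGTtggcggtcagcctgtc

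The motifs were chosen with these sequences in view, and both strands of the 300 bases from 250 before to 50 after each RefSeq start were searched. The Ptgs2 capitals mark TTGCGCAA, a match to the C/EBP-type letters TTGCNNAA found in 10.8% of 32851 RefSeq windows, and GGGGAAAGCC, a match to a loose NF-kB-type pattern (GGG and CC with any 5 bases between) found in 50.8% of windows. The Ptgs1 capitals mark GAGGAAGT, letters of the PU.1 type found in 3.2% of windows. Ptgs1 holds the NF-kB-type pattern too, after its start at 28 to 37 bases (GGGTGGAGCC), so both genes hold these letters. After its start, at 6 to 26 bases (chr1:150100036-150100056, plus strand), Ptgs2 also holds the letters TGACG, a half-site of the cAMP-response element, on the minus strand; 20.8% of windows hold them. They are in capitals, as read on the plus strand:
Ptgs2 site: caccactaCGTCAcgtggagt
RefSeq windows were found for 9 of the 10 members. The windows of Ptges and Tbxas1 lie 26566 and 43582 bases from the GENCODE start of the gene and are not printed. Among the 9, NF-kB-type letters matched in 6, Ptges included, and the AP-1-type letters TGANTCA (7.8% of windows) and TATAAA (13.6%) each matched in 1, Tbxas1. An interferon-response-type pattern (3.4% of windows) matched in 0 of the 9. A match is a description of the letters and shows no binding.

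Ptgs2 was low in untreated cells, at 8.55, 8.83 and 10.2 CPM. At 4 h it stood at 283, 275 and 235 CPM in the isotype libraries and at 2280, 2470 and 2445 CPM in the FcMR libraries. At 12 h these levels were 23, 30.1 and 28 CPM against 353, 317 and 253 CPM, and at 24 h 5.49, 5.57 and 6.05 CPM against 75.2, 126 and 68.6 CPM. Both arms peaked at 4 h among the times sampled, and every FcMR library lay above every isotype library of its time. The log2 fold change was 3.18 (SE 0.191, edgeR adjusted p 5.48e-09) at 4 h, 3.51 (SE 0.196, 2.27e-09) at 12 h and 3.99 (SE 0.215, 4.46e-10) at 24 h. As ratios these are 9.08, 11.4 and 15.9. A joint test did not call a difference in the FcMR effect over the 3 times (edgeR adjusted p 0.141). Without FcMR 24 h replicate 3 the same test was called (0.0483).

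**Figure D2:**
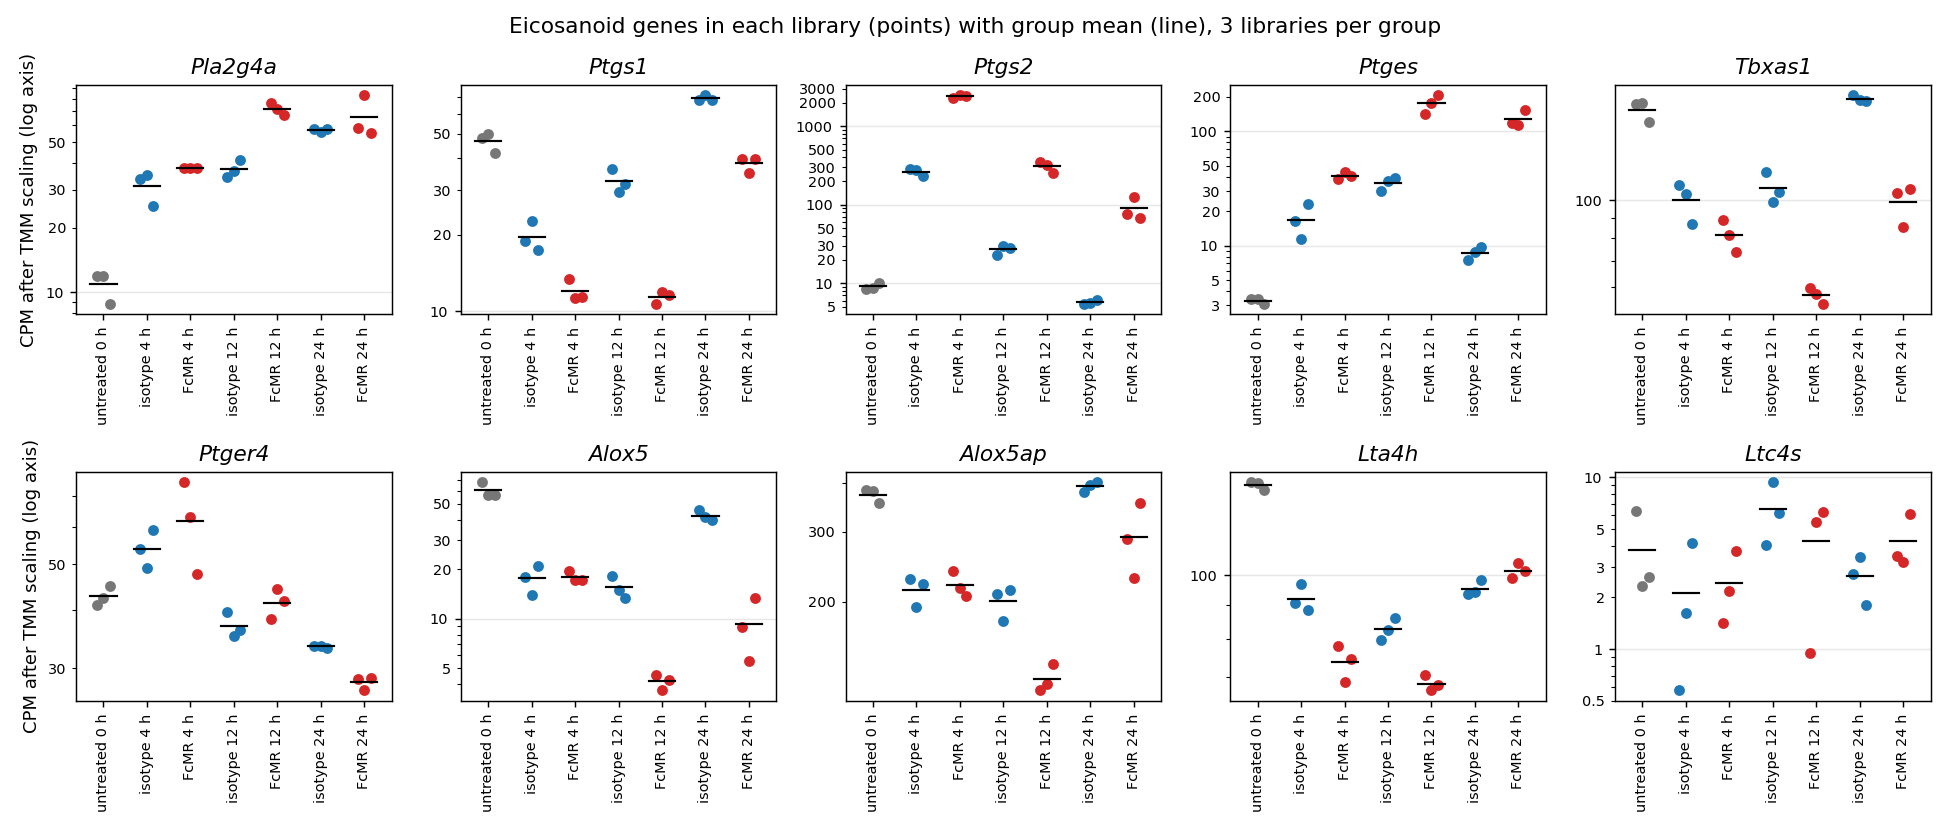
CPM after TMM scaling (vertical log axis, scaled per panel) of the 10 genes in each of the 21 libraries (points: grey untreated, blue isotype control, red FcMR) with the group mean (line). Ptgs2 reaches 2280 to 2470 CPM with FcMR at 4 h, while Ptgs1 is at 13.5 CPM or less with FcMR at 4 and 12 h.

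Ptgs1 ran the other way. It stood at 48.3, 49.9 and 41.9 CPM in untreated cells, at 19, 22.7 and 17.4 CPM with isotype at 4 h and at 13.5, 11.2 and 11.4 CPM with FcMR at 4 h. At 12 h the isotype libraries held 36.4, 29.5 and 31.7 CPM and the FcMR libraries 10.7, 12 and 11.6 CPM. At 24 h they held 67.6, 70.8 and 68.1 CPM and 39.9, 34.9 and 39.9 CPM. At each time all 3 FcMR libraries lay below all 3 isotype libraries. The difference was −0.70 (SE 0.118, edgeR adjusted p 0.000404) at 4 h, −1.51 (SE 0.114, 5.28e-08) at 12 h and −0.85 (SE 0.109, 1.49e-05) at 24 h. Its size differed over the 3 times (joint test, edgeR adjusted p 0.00526). Thromboxane and COX-1 are also products of platelets and megakaryocytes, so their markers are given here. Summed, these markers stood at 35.4 to 50.6 CPM with FcMR and 74.3 to 84.2 CPM with isotype at 12 h, at 41.4 to 56.2 and 86.1 to 114 CPM at 24 h, and overlapped at 4 h (63.4 to 76.4 and 61.2 to 84 CPM). Of the 5 markers, 3 were tested and 1 was called at 12 and 24 h, the chemokine gene Ppbp, which fell by 1.51 and 2.17 on the log2 scale. Of the rest of that list, Gp9 and Gp1bb were at 0 to 0.49 CPM in every library. Itga2b was at 0.698 to 10.5 CPM and Pf4 at 5.77 to 43.2 CPM over all libraries, and both overlapped between the arms at 12 and 24 h. With FcMR and isotype, Pf4 was at 12.4 to 30.9 and 21 to 30.1 CPM at 12 h, and 25.2 to 43.2 and 30.8 to 43.1 CPM at 24 h. Itga2b was at 1.98 to 3.69 and 3.08 to 3.59 CPM at 12 h, and 0.698 to 2.07 and 0.981 to 1.54 CPM at 24 h.

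Per kilobase of transcript, the summed cyclooxygenase level changed its makeup. Ptgs2 made up 11.3% ± 1.92 (SD, n = 3) of the Ptgs1 and Ptgs2 level in untreated cells, counted in CPM per kilobase with the median length of each gene's basic protein-coding transcripts. The individual untreated shares were 10.2%, 10.2% and 13.6%. At 4 h the share was 90.6%, 88.6% and 89.7% with isotype and 99.1%, 99.3% and 99.3% with FcMR. At 12 h it was 28.9%, 39.6% and 36.2% with isotype but 95.5%, 94.5% and 93.3% with FcMR. At 24 h it was 4.97%, 4.83% and 5.41% with isotype and 54.8%, 70% and 52.6% with FcMR. Isotype cells thus had a mostly Ptgs1 makeup again at 12 h and more so at 24 h, whereas Ptgs2 made up 52.6% or more in each FcMR library. No test of these shares was run.

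The 3′ untranslated region of Ptgs2 mRNA is known for AU-rich letters of the kind found in short-lived messages. In GENCODE M21 it spans 2445 bases and holds 14 copies of ATTTA, a number that 2.9% of 11821 genes with a measured region reach, against a median of 2. It also holds 1 copy of the longer AU-rich nonamer, present in 8.1% of genes. Ptger4 held 5 copies of ATTTA, Pla2g4a 4, and Alox5 and Alox5ap 2 each. These numbers, and the 2.9%, are not corrected for length. Per kilobase, Pla2g4a held 9.03 copies, Ptgs2 5.73, Alox5ap 4.77, Ptger4 4.06 and Alox5 3.12, so Ptgs2 led in number but not in density. Ptgs1, Ptges, Tbxas1, Lta4h and Ltc4s held 0, Ptges in 3106 bases. Message stability was not measured.

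Ptges (ENSMUSG00000050737.13, GRCm38 chromosome 2, 30889471 to 30929863, minus strand) encodes the inducible prostaglandin E synthase, which acts after the cyclooxygenases. The gene overlaps Gm13400 on the same strand, so estimated reads could be split between them. Its level was 3.4, 3.4 and 3.11 CPM in untreated cells. At 4 h it stood at 16.4, 11.4 and 23.1 CPM with isotype and 38.2, 43.7 and 41 CPM with FcMR. At 12 h the values were 29.8, 36.8 and 39.3 CPM and 143, 178 and 206 CPM, and at 24 h 7.55, 8.79 and 9.78 CPM and 117, 114 and 154 CPM. The isotype arm peaked at 12 h and then came down, while the FcMR libraries of 12 and 24 h overlapped. The difference widened from 1.26 (SE 0.2, edgeR adjusted p 0.000243) at 4 h to 2.32 (SE 0.193, 1.46e-07) at 12 h and 3.89 (SE 0.216, 6.13e-10) at 24 h. As ratios these are 2.39, 4.98 and 14.8. The change from 4 to 24 h was 2.63 (SE 0.286, edgeR adjusted p 1.02e-05), and the joint test over the 3 times gave 3.78e-05. On the deposited normalized table, limma gave 0.0546 for that joint test.

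Tbxas1 (ENSMUSG00000029925.13, GRCm38 chromosome 6, 38875404 to 39084585, plus strand) encodes thromboxane A synthase, which draws on the same prostaglandin H2. Untreated libraries held 175, 176 and 158 CPM. At 12 h Tbxas1 stood at 118, 98.9 and 105 CPM with isotype and 59.8, 57.9 and 54.5 CPM with FcMR, and at 24 h at 185, 180.0 and 178 CPM and 104, 85.6 and 107 CPM. The groups were apart at both times, by −0.90 (SE 0.103, edgeR adjusted p 6.09e-06) and −0.87 (SE 0.103, 5.52e-06). At 4 h the isotype libraries (109, 104 and 86.9 CPM) overlapped the FcMR libraries (88.9, 81.5 and 74 CPM), and the difference of −0.29 (SE 0.103) was not called (edgeR adjusted p 0.0612). It was called without isotype 4 h replicate 3, at −0.38 (adjusted p 0.0189), and without both libraries out of title order, at −0.38 (0.0166). The FcMR effect on Tbxas1 differed over the 3 times (joint test, edgeR adjusted p 0.0127), but not without FcMR 4 h replicate 1 (0.0622) or by limma on the normalized table (0.216). The levels of platelet and megakaryocyte markers given beside Ptgs1 apply here as well, and their part in either result was not tested.

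Set against each other per kilobase, Ptges made up 0.904% ± 0.00923 (SD, n = 3) of the summed Ptges and Tbxas1 level in untreated cells. With isotype the share was 6.57%, 4.88% and 11.1% at 4 h, 10.6%, 14.9% and 14.9% at 12 h, and 1.88%, 2.24% and 2.51% at 24 h. With FcMR it was 16.7%, 20.1% and 20.6% at 4 h, 52.8%, 59% and 63.9% at 12 h, and 34.6%, 38.5% and 40.3% at 24 h. Tbxas1 was thus the larger part in every library except the 3 FcMR libraries of 12 h. Shares of mRNA say nothing of enzyme activity, which was not measured.

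**Figure D3:**
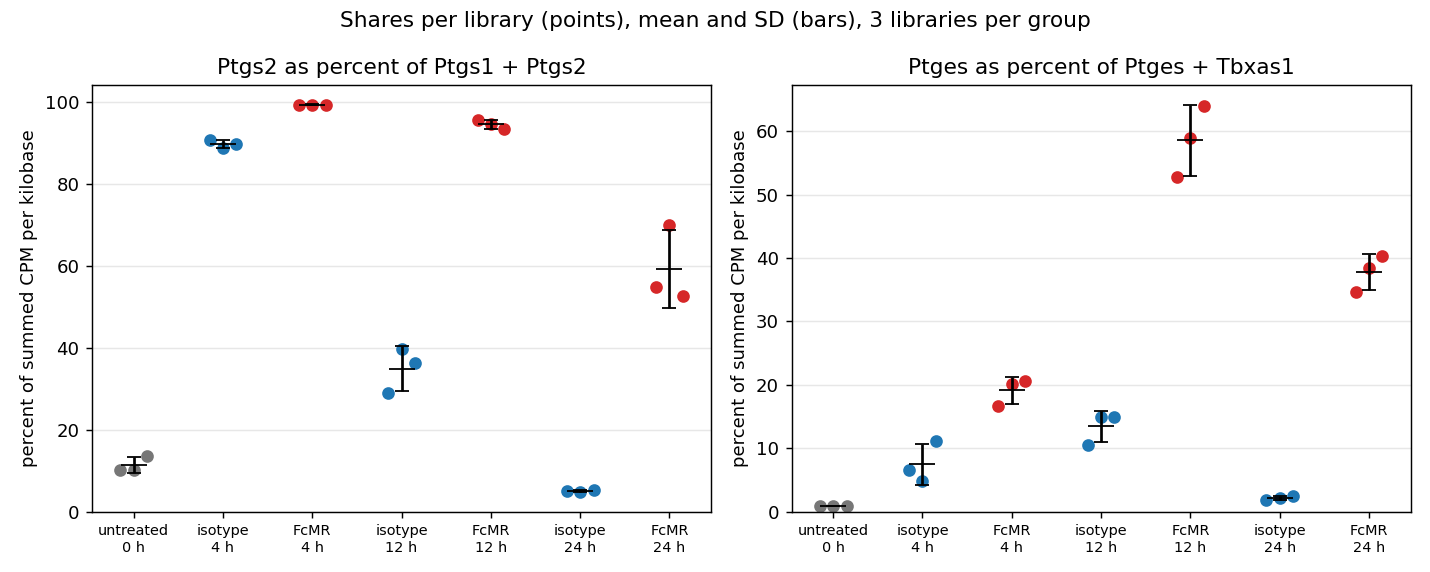
Ptgs2 as percent of the summed Ptgs1 and Ptgs2 level (left) and Ptges as percent of the summed Ptges and Tbxas1 level (right), from CPM per kilobase, in each library (points), with mean and SD (bars, n = 3). At 24 h the Ptgs2 share is 52.6 to 70% with FcMR and 4.83 to 5.41% with isotype.

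Ptger4 (ENSMUSG00000039942.15, GRCm38 chromosome 15, 5206661 to 5244187, minus strand) encodes EP4, a receptor through which prostaglandin E2 raises cAMP. It was not called against the isotype control at any time. At 4 h it stood at 53.9, 49.1 and 59.1 CPM with isotype and 74.9, 63.2 and 47.7 CPM with FcMR, at 12 h at 39.5, 35.2 and 36.1 CPM and 38.2, 44.3 and 41.7 CPM. At 24 h the isotype libraries held 33.5, 33.6 and 33.2 CPM and the FcMR libraries 28.5, 26.9 and 28.6 CPM, the one time at which the groups did not overlap. The differences were 0.20 (SE 0.12), 0.16 (SE 0.119) and −0.26 (SE 0.122), with edgeR adjusted p-values of 0.277, 0.456 and 0.163. FcMR 4 h replicate 3 was the lowest of that time, and without it the 4 h difference was 0.41 and was called (adjusted p 0.00711). The joint test over time gave 0.145, and 0.00751 without that library.

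Alox5 (ENSMUSG00000025701.12, GRCm38 chromosome 6, 116410077 to 116461178, minus strand) encodes 5-lipoxygenase, the enzyme that begins leukotriene synthesis. It had the largest fall of the 10 genes with FcMR at 12 and 24 h. The 250 bases before its RefSeq start (chr6:116461179-116461428, minus strand of GRCm38) are shown for contrast with Ptgs2, with both matches to the NF-kB-type pattern in capitals:
Alox5: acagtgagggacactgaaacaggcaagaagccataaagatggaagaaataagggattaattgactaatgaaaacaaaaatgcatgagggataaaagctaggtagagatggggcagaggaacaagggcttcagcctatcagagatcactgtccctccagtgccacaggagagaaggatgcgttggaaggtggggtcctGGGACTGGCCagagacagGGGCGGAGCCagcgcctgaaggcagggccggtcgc
Alox5 holds a further match after its start, at 2 to 11 bases. That the falling Alox5 and the rising Ptgs2 both hold these letters shows how common the pattern is (50.8% of windows).

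Untreated libraries held 67.6, 56.1 and 56.7 CPM of Alox5. At 4 h the arms overlapped, at 18, 13.9 and 21 CPM with isotype and 19.6, 17.2 and 17.1 CPM with FcMR. At 12 h they stood at 18.1, 15 and 13.4 CPM and at 4.55, 3.67 and 4.27 CPM, and at 24 h at 45.8, 41.6 and 39.6 CPM and at 8.94, 5.51 and 13.3 CPM. Alox5 came back with isotype by 24 h, and each FcMR library of that time remained below even the lowest isotype library. The difference was 0.02 (SE 0.223, edgeR adjusted p 0.963) at 4 h, −1.89 (SE 0.235, 1.6e-05) at 12 h and −2.24 (SE 0.228, 1e-06) at 24 h. The levels with FcMR were 3.69-fold and 4.73-fold lower at 12 and 24 h. The effect differed over time (joint test, edgeR adjusted p 0.000248), with a change of −2.27 (SE 0.317) from 4 to 24 h (0.000119).

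Alox5ap (ENSMUSG00000060063.9, GRCm38 chromosome 5, 149264767 to 149288153, plus strand) encodes FLAP, the membrane protein that presents arachidonate to 5-lipoxygenase. It was far more abundant per kilobase than Alox5, at 464 ± 19.5 against 31.2 ± 3.36 CPM per kilobase in untreated cells (SD, n = 3). With isotype and FcMR it stood at 227, 194 and 222 CPM and 239, 217 and 206 CPM at 4 h, which overlapped. At 12 h it stood at 209, 178 and 214 CPM and 119, 124 and 139 CPM, and at 24 h at 379.7, 394 and 401 CPM and 288, 230.0 and 356 CPM. Alox5ap was lower in every FcMR library of 12 and 24 h than in any isotype library of its time. The difference was 0.04 (SE 0.123, edgeR adjusted p 0.868), −0.66 (SE 0.124, 0.000963) and −0.43 (SE 0.123, 0.0179) at 4, 12 and 24 h. The 24 h call was lost without FcMR replicate 1 (−0.41, adjusted p 0.0655) or 2 (−0.28, 0.0931), without isotype replicate 2 (−0.41, 0.0634) or 3 (−0.40, 0.069), and when only those 6 libraries were fitted (−0.44, 0.103).

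Lta4h (ENSMUSG00000015889.8, GRCm38 chromosome 10, 93453411 to 93484875, plus strand) encodes leukotriene A4 hydrolase, which makes leukotriene B4. Its differences were the smallest of those called. Isotype and FcMR libraries held 90.8, 96.9 and 88.5 CPM and 78, 68.7 and 74.5 CPM at 4 h, 79.6, 82.6 and 86 CPM and 70.4, 66.7 and 67.9 CPM at 12 h, and 93.7, 94.4 and 98.3 CPM and 99, 104 and 102 CPM at 24 h. FcMR was lower at 4 and 12 h and, by a difference that was not called, higher at 24 h. The differences were −0.32 (SE 0.0635), −0.28 (SE 0.0628) and 0.09 (SE 0.0629), with edgeR adjusted p-values of 0.00167, 0.00452 and 0.371. With no expression filter the first 2 were −0.20 (adjusted p 0.141) and −0.25 (0.0558), and with only the 6 libraries compared they were −0.33 (0.102) and −0.27 (0.0672). The joint test over the 3 times gave 0.00824, and 0.0675 without FcMR 4 h replicate 3.

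Ltc4s (ENSMUSG00000020377.15, GRCm38 chromosome 11, 50236461 to 50238616, minus strand) encodes leukotriene C4 synthase, which makes the first cysteinyl leukotriene. It was the lowest of the 10 in counts, with 4 to 408 per library, and varied widely between replicates. Levels were 6.41, 2.35 and 2.62 CPM in untreated cells, 0.574, 1.62 and 4.17 CPM with isotype at 4 h and 1.42, 2.18 and 3.73 CPM with FcMR at 4 h. At 12 h they were 4.04, 9.39 and 6.18 CPM and 0.954, 5.5 and 6.31 CPM, and at 24 h 2.75, 3.43 and 1.8 CPM and 3.5, 3.23 and 6.1 CPM. All FcMR and isotype ranges overlapped. The differences of 0.05 (SE 0.706), −0.57 (SE 0.589) and 0.64 (SE 0.643) were not called, with edgeR adjusted p-values of 0.979, 0.628 and 0.56. Standard errors of this size leave changes such as those of Pla2g4a undetectable for Ltc4s in these libraries. Its transcripts had the highest GC content of the 10 genes, 59.8%. The part of depth and of the GC tilt of libraries in its spread was not tested.

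Eosinophils, mast cells and neutrophils also carry leukotriene genes, so their markers were set beside the leukotriene results. The 5 eosinophil markers summed to 230.1 to 353 CPM with FcMR and 195 to 285 CPM with isotype at 12 h, and to 67 to 97.1 and 86.2 to 125 CPM at 24 h, ranges that overlapped. Of these 5, only Siglecf was called, with a log2 fold change of −1.19 at 12 h and −2.13 at 24 h, while the granule genes Prg2 and Epx overlapped between the arms at both times. The 8 neutrophil and precursor markers summed to 279.6 to 483 CPM with FcMR and 256 to 334 CPM with isotype at 12 h, with S100a8 called higher. At 24 h they summed to 195 to 209.9 and 159 to 187 CPM, with S100a8 called higher and Ltf lower. Mast cell and basophil markers summed to 66.8 to 72.7 CPM with FcMR and 40.1 to 48.9 CPM with isotype at 4 h, to 33 to 38.5 and 22.2 to 28.4 CPM at 12 h, and to 28.9 to 33.1 and 19.9 to 21.9 CPM at 24 h. Of the 8 tested, Hdc was called higher at 4 and 12 h and Kit at 24 h. Single markers of that list ran the other way without being called: Gata2 was at 1.91 to 3.75 CPM with FcMR and 4.98 to 5.38 CPM with isotype at 12 h, and at 1.58 to 3.41 and 3.54 to 4.25 CPM at 24 h. Tpsb2 was at 0 to 0.244 and 0.294 to 0.536 CPM at 24 h, and Fcer1a at 0.291 to 0.367 and 0.394 to 0.617 CPM at 12 h. The part of these cells in the leukotriene results was not tested.

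Against untreated cells the isotype arm moved by itself. At 4 h, 9 of 10 members were called where 35.6% of genes were, 4 higher (20.4%) and 5 lower (15.2%). Over all genes these shares are 2743 higher and 2049 lower calls, against 2221 and 2608 with upper-quartile factors. At 12 h, 8 were called (41.6% of genes), 3 higher (22%) and 5 lower (19.6%), and at 24 h 6 (42.2%), 3 higher (21.3%) and 3 lower (20.9%). Ptgs2 led at 4 h with 4.84 (SE 0.212, edgeR adjusted p 8.9e-12), then 1.55 (SE 0.194) at 12 h and −0.69 (SE 0.215, 0.0153) at 24 h. The last call was lost without isotype 24 h replicate 1 (−0.63, 0.061) or 2 (−0.64, 0.0567), without untreated replicate 3 (−0.61, 0.055) and by limma-voom (−0.68, 0.106). Pla2g4a rose throughout, by 1.52 (SE 0.159), 1.78 (SE 0.157) and 2.39 (SE 0.159). Ptges rose by 2.37 (SE 0.228), 3.41 (SE 0.223) and 1.39 (SE 0.233), the last with an edgeR adjusted p of 0.000105 but 0.0638 by limma on the normalized table.

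Ptgs1, Tbxas1, Alox5, Alox5ap and Lta4h were the 5 called lower with isotype at 4 h, and each of the 5 was called lower at 12 h too. For Alox5 the difference was −1.76 (SE 0.221) at 4 h, −1.96 (SE 0.218) at 12 h and −0.50 (SE 0.209) at 24 h, the last not called (edgeR adjusted p 0.062). Ptgs1 crossed over, from −1.25 (SE 0.114) and −0.52 (SE 0.109) to 0.56 (SE 0.108) above untreated cells at 24 h, each called. Tbxas1 and Alox5ap were within 0.09 of untreated cells at 24 h and not called, with edgeR adjusted p-values of 0.495 and 0.674. Lta4h was −0.58 (SE 0.0631), −0.73 (SE 0.0628) and −0.53 (SE 0.0628), called at each time. Ptger4 was 0.34 (SE 0.12, edgeR adjusted p 0.0362) at 4 h and −0.36 (SE 0.121, 0.0243) at 24 h, calls that were lost with no expression filter (0.24, 0.276, and −0.33, 0.0971). They were also lost without any one of several libraries, with adjusted p-values of 0.0545 to 0.12 at 4 h (untreated replicates 1 to 3, isotype replicates 1 and 3) and 0.0524 to 0.0954 at 24 h (untreated replicates 2 and 3, isotype replicates 1 to 3). Eosinophil markers moved with this comparison, from 659 to 870.4 CPM in untreated cells to 86.2 to 125 CPM with isotype at 24 h, as did neutrophil markers, from 1148 to 1341 CPM to 159 to 187 CPM. Mast cell and basophil markers went from 68.8 to 77.5 CPM to 19.9 to 21.9 CPM, with 7 of 8 called lower, and megakaryocyte and platelet markers from 20.1 to 23 CPM to 86.1 to 114 CPM, with 2 of 3 called higher and 1 lower. Their part in the result was not tested.

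With FcMR, 9, 8 and 9 of the 10 members were called against the same untreated libraries at 4, 12 and 24 h, where 48.2%, 48.1% and 51.4% of genes were. The 3 untreated libraries serve both comparisons, so the values are given side by side. Ptgs2 differed from untreated cells by 8.03 (SE 0.242), 5.06 (SE 0.214) and 3.30 (SE 0.201), a ratio of 261 at 4 h. Ptges differed by 3.63 (SE 0.224), 5.73 (SE 0.236) and 5.28 (SE 0.233), and Pla2g4a by 1.8 (SE 0.158), 2.71 (SE 0.16) and 2.59 (SE 0.159). Alox5 differed by −1.74 (SE 0.217), −3.84 (SE 0.243) and −2.75 (SE 0.23), each with an edgeR adjusted p of at most 3.16e-06, and at 12 h its level was 14.4-fold below that of untreated cells. Alox5ap, at −0.36 (SE 0.123), and Ptgs1, at −0.29 (SE 0.109), were called at 24 h (edgeR adjusted p 0.0218 for Alox5ap and 0.0324 for Ptgs1). Both calls were lost with no expression filter (−0.32, 0.0794, and −0.25, 0.118). Each was also lost without FcMR replicate 1 or 2 or untreated replicate 1 or 2, at 0.0593 to 0.202 for Alox5ap and 0.0962 to 0.22 for Ptgs1, which was lost without FcMR replicate 3 too (0.0789).

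From 4 to 24 h, 8 of 10 members were called in the isotype arm (39.0% of genes) and 9 of 10 in the FcMR arm (49.6%). On the log2 scale Ptgs2 fell by 5.53 with isotype and fell by 4.73 with FcMR. Ptges fell by 0.98 with isotype (SE 0.215, edgeR adjusted p 0.00144, but 0.0568 by limma on the normalized table) and rose by 1.65 with FcMR (SE 0.19, 1.37e-06). Alox5 was the reverse, at 1.26 (SE 0.221) with isotype and −1.01 (SE 0.227) with FcMR. Ptgs1 rose in both, by 1.81 (SE 0.115) and 1.66 (SE 0.115). The direct test of whether the FcMR effect itself changed from 4 to 24 h called 4 of 10 members, where 13.9% of genes were called: Ptges (2.63), Lta4h (0.41, edgeR adjusted p 0.00513), Tbxas1 (−0.58, 0.0123) and Alox5 (−2.27). For Ptgs2 that change was 0.81 (SE 0.27, edgeR adjusted p 0.0564), and it was called without FcMR 24 h replicate 1 (0.91, 0.0451) or 3 (0.95, 0.0173) or isotype 4 h replicate 3 (0.89, 0.0334). For Lta4h it was 0.36 (0.0547) without FcMR 4 h replicate 3. The joint test over all 3 times called 7 of 10 members, against 11% of genes. For Pla2g4a (edgeR adjusted p 0.0476) that call was lost without any single treated library other than FcMR 24 h replicate 2 or isotype 4 h replicate 3 (0.0632 to 0.152). For Alox5ap (0.0323) it was lost without FcMR 4 h or 12 h replicate 1 or 2, isotype 4 h or 24 h replicate 2, or isotype 12 h replicate 1 or 3 (0.0501 to 0.0869).

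Per kilobase, the order of the members shifted between groups. In untreated cells Alox5ap (464 ± 19.5 CPM per kilobase) was followed by Tbxas1 (99.3 ± 6.13) and Lta4h (67.8 ± 1.0), while Ptgs2 (2.07 ± 0.2) and Ptges (0.906 ± 0.0469) were lowest (SD, n = 3). With FcMR at 4 h Ptgs2 was first, at 539 ± 23.1, ahead of Alox5ap at 275 ± 21.1. With FcMR at 12 h Alox5ap was again first (158 ± 12.9), followed by Ptgs2 (69.1 ± 11.4) and Ptges (48.2 ± 8.75), with Alox5 lowest (2.16 ± 0.234). Across groups, Ptgs2 was highest with FcMR at 4 h and lowest with isotype at 24 h, and in that order only FcMR at 12 h and isotype at 4 h overlapped as neighbours. Alox5 was highest in untreated cells and lowest with FcMR at 12 h, with overlap of neighbours among FcMR at 4 h, isotype at 4 h and isotype at 12 h.

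Of 55 further genes of the pathway, 50 were in the table and 37 were tested. With FcMR against isotype, 7 were called at 4 h (2 rose, 5 fell). At 12 h 13 were called (3 rose, 10 fell), and at 24 h 18 (8 rose, 10 fell), to be read against 17.7%, 16.1% and 20.9% of all genes. Their median log2 fold changes were −0.04, −0.35 and −0.11. The 12 h count was 7 without isotype 12 h replicate 1 and 8 without replicate 3, and the 24 h count was 11 without FcMR 24 h replicate 2. When only the 6 libraries compared were fitted, edgeR called 0 of the 37 at 4 h, with 9 at an unadjusted p under 0.05, and DESeq2 on all libraries called 7. The list was chosen with earlier results of these data known.

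Among phospholipases and genes that handle arachidonate (10 tested), 1, 3 and 3 were called at 4, 12 and 24 h. Pla2g16, a phospholipase A1/A2 gene also named Plaat3, rose by 0.95 (SE 0.185), 0.74 (SE 0.174) and 1.0 (SE 0.179), with edgeR adjusted p-values of 0.00141, 0.00607 and 0.000476. Its FcMR libraries held 26.7, 37.8 and 36.5 CPM at 4 h, above the 15.8, 12.4 and 23.3 CPM of isotype. The 4 h call was lost with only the 6 libraries compared (0.96, 0.0705). Pla2g15, a lysosomal phospholipase gene, fell by 1.06 at 24 h (SE 0.181, edgeR adjusted p 0.000284), from 73.3, 66.9 and 63.6 CPM to 36.4, 26 and 35.6 CPM.

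Among the other terminal prostanoid synthases (6 tested), 0, 1 and 2 were called, all lower. Hpgds encodes the hematopoietic prostaglandin D synthase. It stood at 21, 18.1 and 16.5 CPM with isotype and 2.67, 4.41 and 2.93 CPM with FcMR at 24 h, a difference of −2.42 (SE 0.27, edgeR adjusted p 2.96e-06). At 12 h the difference was −1.10 (SE 0.268, 0.0077), lost without FcMR 12 h replicate 3 (−0.88, 0.0569) or isotype 12 h replicate 1 (−0.88, 0.0632) and by limma on the normalized table (−0.55, 0.587). At 4 h it was −0.38 (0.385), and the effect differed over time (joint test 0.00453). Hpgds is also known from mast cells, whose markers are given beside the leukotriene results, and their part in this result was not tested. Ptgis, the prostacyclin synthase gene, was at 0.883, 1.18 and 1.54 CPM with isotype and 0.308, 0.22 and 0.61 CPM with FcMR at 24 h (−1.82, SE 0.545, edgeR adjusted p 0.0228). That call was lost without FcMR replicate 1 or 2 or isotype replicate 2 or 3 (0.0536 to 0.169), and by limma-voom (0.0577).

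Genes of prostanoid breakdown and transport (5 tested) were called 2, 2 and 4 times. Ptgr1, prostaglandin reductase 1, which inactivates eicosanoids, was at 237, 280.3 and 301 CPM with isotype and 502, 534 and 551 CPM with FcMR at 24 h, a rise of 0.96 (SE 0.122, edgeR adjusted p 1.36e-05), against −0.17 and 0.00 at 4 and 12 h (0.367 and 1). Its joint test gave 0.000489. Abcc4, an exporter of prostaglandin E2, rose by 0.62 (SE 0.123, 0.00157) at 12 h and 0.75 (SE 0.125, 0.000225) at 24 h. Abcc1, an exporter of leukotriene C4, rose by 0.46 (SE 0.11, edgeR adjusted p 0.00645) at 4 h and by 0.55 (SE 0.11, 0.00124) at 24 h. Its 4 h call was lost with only the 6 libraries compared (0.46, 0.0891). Hpgd, the prostaglandin dehydrogenase gene that begins breakdown, was at 0 to 0.486 CPM, with at most 7 counts in a library, and was not tested.

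Prostanoid receptors (4 tested) were called 3 times at 4 h, each lower, and 0 times at 12 and 24 h. Ptger2 encodes EP2, the other cAMP-raising receptor of prostaglandin E2. It stood at 7.9, 5.95 and 9.15 CPM with isotype and 3.97, 4.7 and 5.22 CPM with FcMR at 4 h, a difference of −0.76 (SE 0.184, edgeR adjusted p 0.00741), and at 12 and 24 h it was −0.35 (0.184) and −0.43 (0.0878). Without isotype 24 h replicate 1 the last was called (−0.54, 0.0424). Ptgir, the prostacyclin receptor gene, fell by 0.55 at 4 h (SE 0.166, edgeR adjusted p 0.028), a call lost without any FcMR 4 h library or isotype 4 h replicate 1 or 3 (0.0552 to 0.137). Ptger3, which encodes EP3, was at 0.574, 1.62 and 1.74 CPM with isotype and 0.0708, 0.414 and 0.373 CPM with FcMR at 4 h (−2.15, SE 0.616, edgeR adjusted p 0.0207). FcMR replicates 1 and 3 lay under the level of 3 counts in those libraries (0.18 and 0.476 CPM), so the difference rests on few reads. The call was lost without FcMR replicate 1 (−1.68, 0.0943) or isotype replicate 2 (−1.96, 0.0707) or 3 (−1.86, 0.0716).

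**Figure D4:**
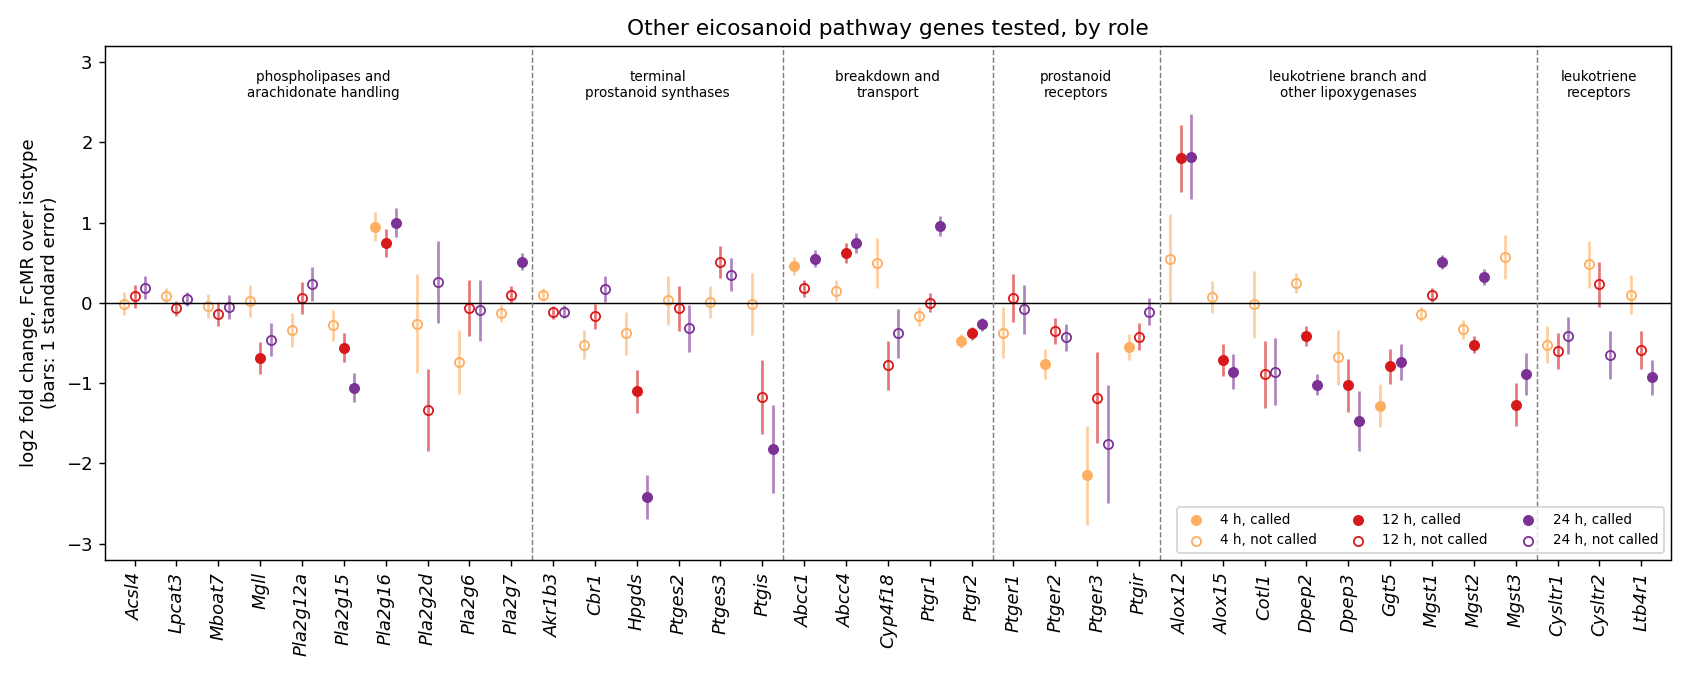
Log2 fold change with FcMR over isotype control (vertical axis, bars of 1 standard error) at 4, 12 and 24 h for the 37 other pathway genes tested, grouped by role; filled points were called. Hpgds falls to −2.42 at 24 h, and 5 of the 8 genes of the leukotriene branch called at 24 h lie below 0.

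The leukotriene branch and other lipoxygenases (9 tested) were called 1, 7 and 8 times. Alox12, the platelet-type 12-lipoxygenase gene, rose from 0.673, 0.587 and 1.12 CPM with isotype to 3.38, 2.71 and 2.87 CPM with FcMR at 12 h (1.8, SE 0.421, edgeR adjusted p 0.00561), and by 1.82 at 24 h (SE 0.533, 0.0198). Without FcMR 24 h replicate 2 (1.59, 0.0964) or isotype 24 h replicate 1 (1.33, 0.111) or 2 (1.72, 0.0765) the second call was lost. The microsomal glutathione transferase genes Mgst2 and Mgst3 encode relatives of leukotriene C4 synthase. Mgst2 was at 10.4, 11.3 and 11.3 CPM with isotype and 8.44, 8.21 and 6.41 CPM with FcMR at 12 h (−0.52, SE 0.111, edgeR adjusted p 0.0026). At 24 h it was at 59.7, 65.6 and 67.6 CPM and 79.3, 77.5 and 83.5 CPM (0.32, SE 0.101, 0.0331). That call stood in only 5 of 18 alternative fits, and was lost in each of the 6 that left out 1 library (0.0547 to 0.154). Mgst3 fell by 1.27 at 12 h (SE 0.268, edgeR adjusted p 0.0026), from 10.2, 8.66 and 8.21 CPM to 2.94, 3.32 and 4.81 CPM.

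Further down that branch, Ggt5 and Dpep3 belong to families whose enzymes trim cysteinyl leukotrienes. Ggt5 fell by 1.28 at 4 h (SE 0.265, edgeR adjusted p 0.0024) and by 0.79 at 12 h (SE 0.218, 0.0165), from 6.62, 5.87 and 6.59 CPM with isotype to 3.67, 4.02 and 3.4 CPM with FcMR. The 4 h call was lost with only the 6 libraries compared (−1.27, 0.0923), and the 12 h call without FcMR 12 h replicate 3 (−0.74, 0.0659) or isotype 12 h replicate 1 (−0.77, 0.0556) or 3 (−0.77, 0.0577). Dpep3 fell by 1.03 at 12 h (SE 0.335, 0.0443) and by 1.47 at 24 h (SE 0.375, 0.00831), at levels under 2 CPM in both arms. Its 12 h call stood in only 5 of 18 alternative fits. Among others, it was lost without FcMR 12 h replicate 1 or 2 or any isotype 12 h library (0.0649 to 0.179). Its 24 h call was lost without FcMR 24 h replicate 2 (−1.26, 0.0638) or isotype 24 h replicate 1 (−1.29, 0.0538). Of 3 leukotriene receptors tested, 1 was called, at 24 h: Ltb4r1, the high-affinity leukotriene B4 receptor gene, at 12.9, 12.4 and 10.6 CPM with isotype and 6.78, 4.41 and 8.17 CPM with FcMR (−0.93, SE 0.22, edgeR adjusted p 0.005).

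As a description, the genes whose log2 CPM ran most like that of 3 members over the 21 libraries were listed by Pearson's r among 11435 genes averaging 1 or more in log2 CPM. The libraries share groups, times and processing, so no p is given. For Ptgs2 these were Ccrl2 (r = 0.994), Il1a (0.993), Mtmr7 (0.985), Cflar (0.984) and Stip1 (0.982). For Ptgs1 they were Svil (0.979), Rcbtb2 (0.967), Txndc16 (0.964), Sort1 (0.961) and Tsc22d3 (0.957). For Alox5 they were Pld4 (0.968), Acap1 (0.968), Plp2 (0.962), E2f2 (0.953) and Plcb2 (0.950).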

How the data were processed

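RNA from 21 libraries was sequenced by the submitters as 75-base single reads, per the labels' protocols. The submitters' processing notes name CASAVA 1.8.2, kallisto 0.44.0, DESeq2 and GRCm38 (mm10). The authors' deposited raw table holds an estimated count per gene and library, in whole numbers for 23250 genes with at least 10 counts in sum. The deposited normalized table holds a signal, the raw value divided by a factor per gene and library, and served as an alternative with a pseudocount of 1. The design had assumed plain counts, and the same count test was kept.

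The 10 genes, the pathway list and the marker lists were chosen with earlier results of these data known. Ensembl IDs without version were matched to GENCODE M21 (23206 matched, 21250 with version). edgeR 4.0.16 (quasi-likelihood test, TMM, filterByExpr with a minimum of 10 counts) was fitted once to all groups under R 4.3.3, with Benjamini-Hochberg adjustment over 13468 genes and a threshold of 0.05. The fit was tested on simulated data. Levels per kilobase used the median length of basic protein-coding transcripts. GC correction covered 13440 genes. Alternatives used RLE and upper-quartile factors, other filters, DESeq2 1.42.0, limma 3.58.1, a replicate block and left-out libraries. Besides the 10 genes, the pathway genes named were the 4 highest and 4 lowest fold changes among those called against isotype at each time, plus Hpgds, Hpgd, Ptger2, Mgst2 and Ltb4r1. Intervals of counting were not used, and the depth floor is 3 counts. Promoter sequences came from RefSeq windows on GRCm38.p6. Marker lists covered macrophages, mast cells and basophils, eosinophils, neutrophils, megakaryocytes and platelets, dendritic cells, stromal cells, B cells and T cells. No label pairs libraries by replicate number, and the main fit used no pairing.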

Additional observations from a re-analysis of the deposited data

Results flagged for a closer look

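The difference between FcMR and isotype control was not of one size at 4, 12 and 24 h for 7 of the 10 genes, by edgeR's joint test of the 3 time-specific effects with Benjamini-Hochberg adjustment over all genes tested. The adjusted p was 3.78e-05 for Ptges, 0.000248 for Alox5, 0.00526 for Ptgs1, 0.00824 for Lta4h, 0.0127 for Tbxas1, 0.0323 for Alox5ap and 0.0476 for Pla2g4a. The calls of Lta4h, Tbxas1, Alox5ap and Pla2g4a were each lost when certain single libraries were left out, as given above. Ptges moved from 1.26 at 4 h to 3.89 at 24 h, and Alox5 from 0.02 to −2.24. Among the other pathway genes named, the same test gave 0.000489 for Ptgr1, 0.00266 for Mgst2, 0.00453 for Hpgds and 0.00845 for Mgst3. By limma on the normalized table the joint p of Hpgds was 0.137.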

How the results depend on the processing

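None of the members' fold changes that was called turned direction under an alternative. Over members and comparisons, 1488 values under other settings kept their side of the threshold, 43 lost a call and 29 gained one, and with single libraries left out these numbers were 891, 59 and 10. The joint test over time called 7 members, but 3 by limma on the deposited normalized table and 4 to 7 with single libraries left out (4 without FcMR 4 h replicate 1). The change from 4 to 24 h was called for 4 members, but for 2 by limma on the normalized table, 7 with GC correction, 7 with the replicate block and GC correction, and 4 to 6 with single libraries left out. Against isotype the left-out fits called 4 to 5, 8 and 5 to 6 members at 4, 12 and 24 h. The causes were not tested.

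No label ties equal replicate numbers to a mouse or day, so whether they mark paired libraries is unknown. Deviations from the group mean had mean correlations of −0.071, 0.106 and 0.014 between same-numbered FcMR and isotype libraries at 4, 12 and 24 h. With 3 libraries per group and GC tilts that differ within groups, these values cannot settle it. With the replicate block, 5, 8 and 6 members were called, and 2541, 2290 and 2911 of all genes.

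Over all genes, FcMR against isotype called 2390 genes at 4 h, against 3975 with GC correction, 4090 with block and GC correction, 3898 without the libraries out of title order, 868 with only the groups compared and 1589 without FcMR 4 h replicate 2. At 12 h, 2169 became 3492 and 3645 with GC correction alone and with the block. Isotype against untreated at 4 h went from 4792 to 2881 with only the groups compared. The joint test went from 1484 to 925 with no filter, 3134 and 3369 with GC correction alone and with the block, 2616 without the libraries out of title order, 973 without FcMR 4 h replicate 2 and 2294 without isotype 4 h replicate 3. The change from 4 to 24 h went from 1873 to 1199 with no filter, 3264 and 3420 with GC correction alone and with the block, 3713 without the libraries out of title order, 1038 with only the groups compared and 2831 without isotype 4 h replicate 3. Upper-quartile factors shifted the median of all genes by −0.115 for FcMR against untreated at 4 h. The other pathway genes called went from 7 to 12 at 4 h with GC correction, with or without the block, and to 0 with only the groups compared. At 12 h they went from 13 to 8 on the normalized table, and at 24 h from 18 to 11 with only the groups compared.

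Depth limits the genes under a few CPM. For Ltc4s the part of depth in its wide spread between replicates was not tested.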
